A study of Saccharomyces cerevisiae with 2 samples.

Results

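The genes described here are HAC1 and 9 genes of signalling and protein folding in the endoplasmic reticulum (ER) of budding yeast: IRE1, LHS1, SCJ1, JEM1, PDI1, EUG1, MPD1, ERO1 and CNE1. They were taken by their standard names among the features annotated as open reading frames (ORFs), and all 10 were found among 5798 ORFs. Both samples are biological replicates of 1 strain, JZY65, whose RPB4 coding sequence is deleted, grown to log phase at 30 °C in the rich medium YPD. Total RNA was profiled by 3' READS, which sequences the last bases before the poly(A) tail, so that a read gives the 3' end of 1 transcript. RPB4 encodes a subunit of RNA polymerase II. Cells with an intact RPB4 were not analysed here, and what the deletion changed cannot be read from these values. With 1 group of 2 replicates, no test between groups was possible, and values are given per replicate or as the mean ± SD (n = 2).

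The ER folds secreted and membrane proteins. Hsp70-type chaperones with J-protein partners hold the chains, oxidoreductases form and reshuffle disulfide bonds, and lectin chaperones retain glycoproteins. When unfolded proteins accumulate, the kinase and nuclease Ire1 cuts an unusual intron out of the HAC1 mRNA, tRNA ligase joins the exons, and the Hac1 transcription factor made from it induces genes of ER folding, which is known as the unfolded protein response. The intron keeps the HAC1 message untranslated in unstressed cells, and an element in its 3' untranslated region helps to bring it to Ire1. The reads here mark 3' ends and carry no information on that splicing.

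Each ORF's 3' window covers the first 400 nt past its stop codon. Summed over ORFs, these windows held 27375964 reads in replicate 1 and 24905570 in replicate 2. The ORFs themselves held 2.08% and 2.12% of ORF and window reads. Where a window overlaps another ORF or window on the same strand, a read counts in each, so these sums are not counts of distinct reads. Genome-wide values refer to 4939 ORFs, called the ORFs used, for which both replicates had 100 window reads or more. All 10 genes are among them. The deleted RPB4 coding sequence itself held 0 reads in both replicates, against 4486 and 4066 reads in the window after it. These 0 counts allow shares of up to 0.0669% and 0.0738% (3 counts of the total). Since amplified copies were not distinguished, intervals and limits describe counting error only.

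Among the 10 genes, the 8 folding genes had mean endpoints below the genome median and the 2 signalling genes had mean endpoints above it. The 8 genes of folding enzymes and chaperones had mean endpoints (the average distance of a gene's reads from its stop codon) between 54.6 nt (EUG1) and 99.9 nt (LHS1). The 2 signalling genes lay far beyond, at 216.3 nt ± 0.414 for IRE1 and 394.0 nt ± 0.0996 for HAC1 (SD, n = 2 each). The median over the 10 genes was 91.2 nt in both replicates, against 122.3 and 123.6 nt over all ORFs used. Below the genome median in both replicates were 8 of the 10 genes, against 48.6% of all ORFs used, and the same percentage, 48.6%, lay above it in both. The genes were chosen by function, with earlier results on these samples known, and no test was made of the list. 

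**Figure D1:**
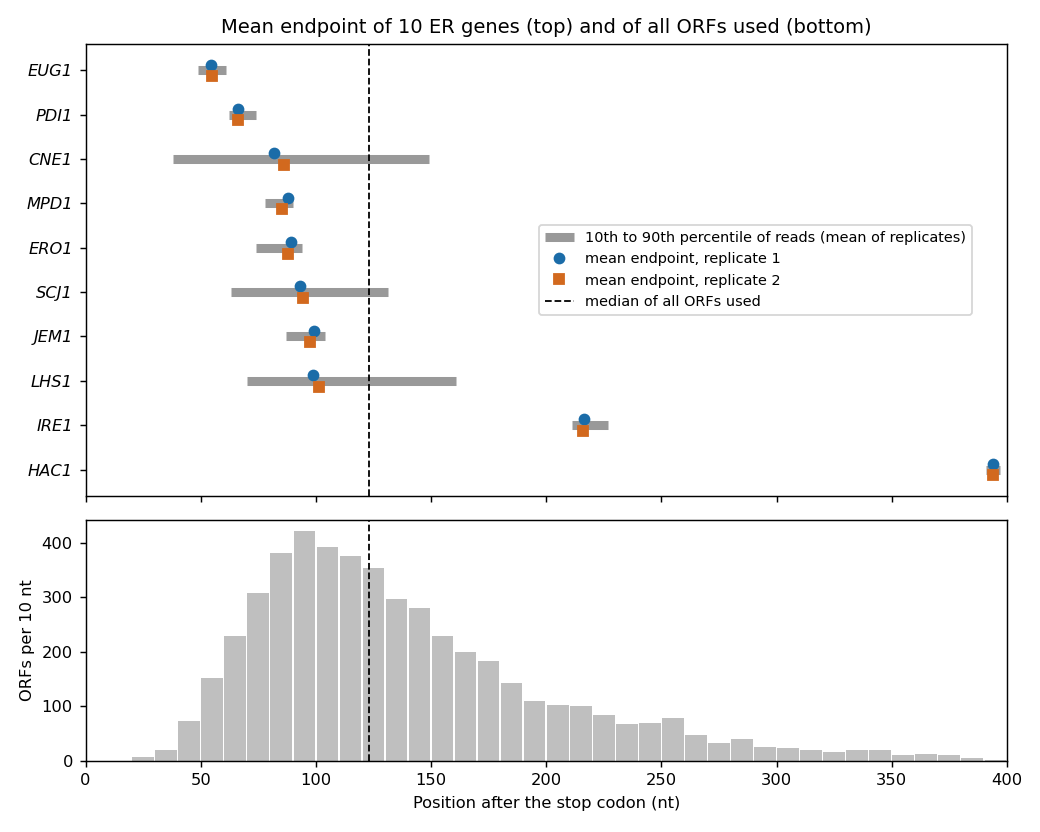
Mean endpoints of the 10 genes in replicate 1 (circles) and replicate 2 (squares), with the 10th to 90th percentile of each gene's reads as a grey bar, above a histogram of the mean endpoints of the 4939 ORFs used. The horizontal axis is the distance after the stop codon in nt. 8 genes sit left of the dashed genome median of 123.0 nt, and IRE1 and HAC1 sit right of it.

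HAC1 (YFL031W, chromosome VI, 75179 to 76147, plus strand, coordinates that include its intron) had nearly all of its window reads in 1 dense cluster at the far edge of the window. It had 3000 window reads in replicate 1 and 3808 in replicate 2. The position 397 nt after the stop codon, at coordinate 76544, held 1711 and 2249 of them, or 58.0% ± 1.43 (SD, n = 2). Next came 394 nt with 437 and 522 reads, then 395 nt with 168 and 332 reads and 393 nt with 154 and 243 reads. From 385 to 399 nt lay 98.1% and 98.4% of the reads. Positions 1 to 300 held 8 and 16 reads, so few of the HAC1 ends measured lay close to the stop codon in either culture.

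The measuring window ends at 400 nt, 3 nt after that main site. Positions 398 to 400 held 67 and 71 HAC1 reads, 2.23% and 1.86% of the total, and position 400 alone held 11 and 20. These 3 positions are too few to tell whether the cluster ends at 397 nt, and 3' ends further downstream are not measured here. Among the ORFs used, 1 had a longer mean endpoint than HAC1. A most used position beyond 390 nt in both replicates was found in 0.364% of all ORFs used, and HAC1 was 1 of those 18. The 3 named ORFs nearest to HAC1 in mean endpoint were RIP1, of respiratory complex III (397.5 nt ± 0.867), ERC1 (389.9 nt ± 8.68) and SSY5, of amino acid sensing (388.4 nt ± 0.666; SD, n = 2 each). Their most used positions were 400, 397 and 390 nt, and they were read less deeply, with 215 to 1024 window reads per replicate. That likeness is in 1 number over 2 replicates and is limited by the window for all of them.

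IRE1 (YHR079C, chromosome VIII, 258244 to 261591, minus strand), of the kinase and nuclease that senses unfolded proteins, also ended at 1 main site with smaller ones around it. It had 1629 and 1837 window reads, of which 836 and 985 lay at 218 nt (coordinate 258026), a share of 52.5% ± 1.63 (SD, n = 2). The group of sites from 211 to 231 nt held 93.6% and 94.1% of the reads. The next gene, YHR078W, lies on the opposite strand and its coding region ends where the IRE1 window reaches 226 nt, so the main IRE1 site is 8 nt short of it. At 226 nt or beyond lay 231 and 264 IRE1 reads, 14.2% and 14.4% of its total, inside the YHR078W region on the opposite strand. IRE1 had a longer mean endpoint than 87.5% of the ORFs used.

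**Figure D2:**
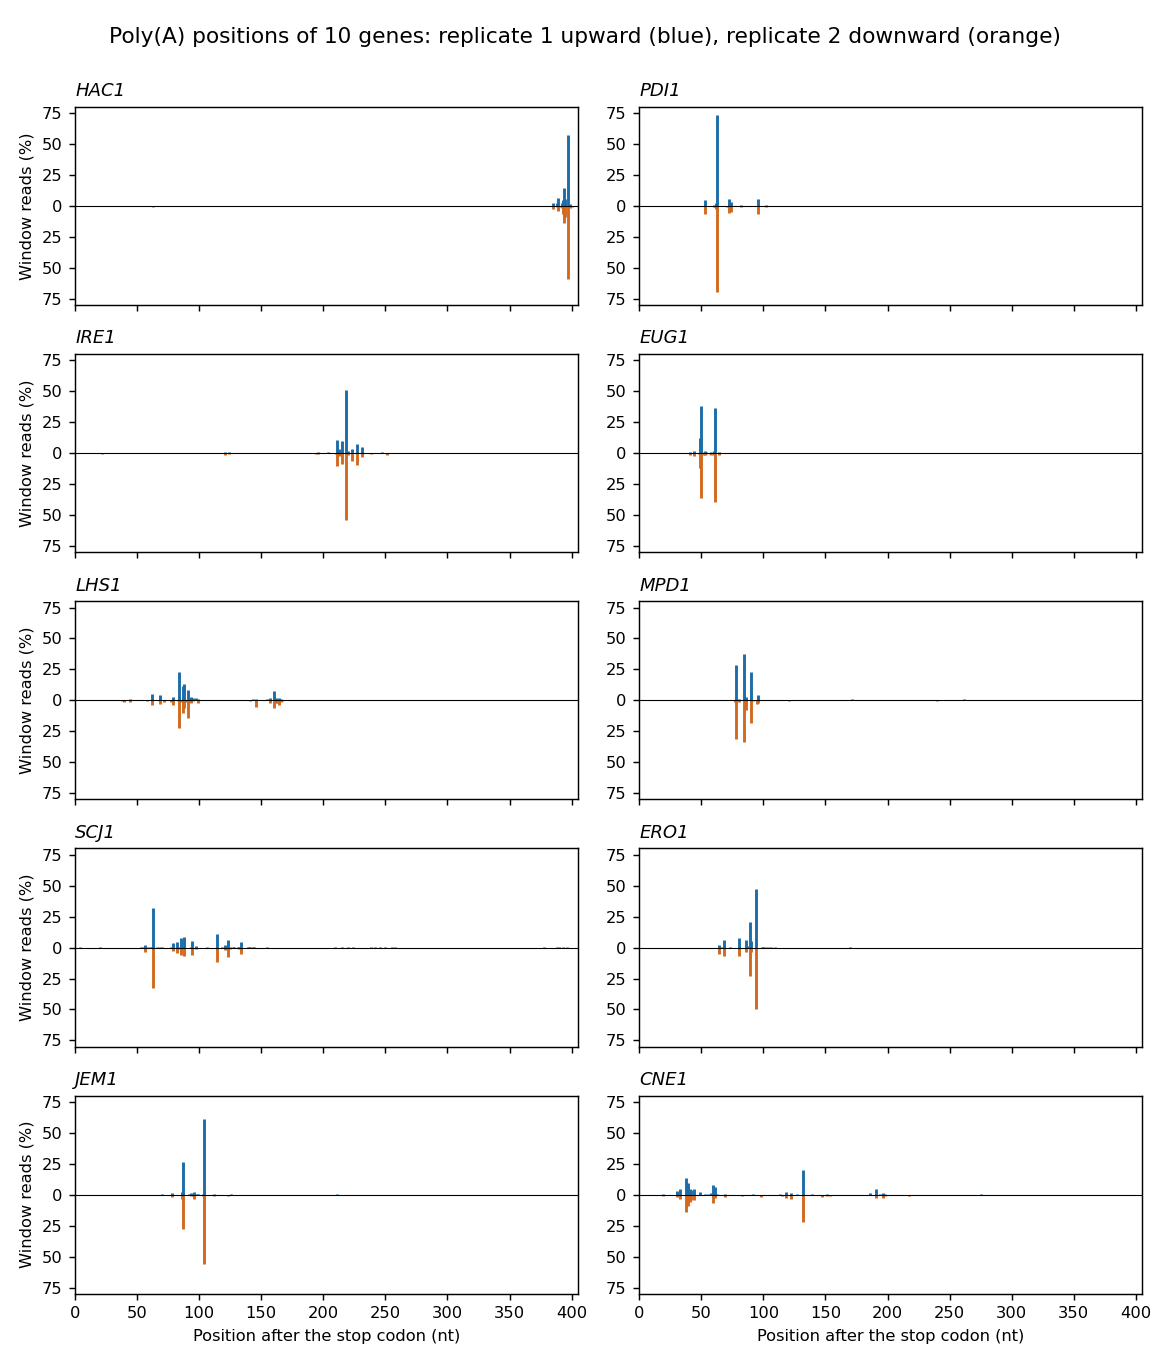
Share of each gene's window reads (vertical axis, %) at each position after the stop codon (horizontal axis, nt), replicate 1 upward and replicate 2 downward. HAC1 piles up at 397 nt and IRE1 at 218 nt, EUG1 shows twin peaks at 50 and 61 nt, MPD1 has peaks at 78, 84 and 90 nt, and LHS1, SCJ1 and CNE1 spread over several groups of sites.

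The 3 chaperone genes differed in how their sites were laid out. LHS1 (YKL073W, chromosome XI, 296430 to 299075, plus strand), of an Hsp70 relative that acts as a nucleotide exchange factor for the ER Hsp70 Kar2, had 1183 and 1094 window reads spread widely. Its most used position, 84 nt, took 269 and 241 reads (22.4% ± 0.502, SD, n = 2). A proximal group of sites at 62 to 99 nt held 78.5% and 73.2% of the reads, and a distal group at 146 to 166 nt held 17.8% and 23.1%. Single positions moved between the replicates, with 154 and 64 reads at 88 nt and 15 and 58 reads at 146 nt. The replicate profiles of LHS1 shared 77.1% of their area, the lowest of the 10 genes, against a median of 84.5% over all ORFs used.

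SCJ1 (YMR214W, chromosome XIII, 695350 to 696483, plus strand), of a J-protein in the ER lumen, divided its reads almost evenly over 3 groups of sites. It had 5618 and 5450 window reads. The groups at 56 to 63 nt, 79 to 97 nt and 114 to 134 nt held 35.6% ± 0.867, 30.5% ± 2.62 and 27.9% ± 2.16 of them (SD, n = 2 each). The first group was nearly all 1 position, 63 nt, with 1795 and 1778 reads. The division between these groups was thus kept across the replicates within a few percent of the reads.

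JEM1 (YJL073W, chromosome X, 303181 to 305118, plus strand), of another J-protein of the ER, used a pair of sites. Position 104 nt held 854 and 708 of its 1396 and 1259 window reads, and 87 nt held 366 and 353. Together they took 87.4% and 84.3% of the reads. The DNA replication gene PSF2 runs toward JEM1 on the opposite strand and its coding region begins to overlap the JEM1 window at 103 nt. JEM1 reads at 103 nt or beyond, inside the PSF2 coding region on the opposite strand, numbered 891 and 753, or 63.8% and 59.8%. Most JEM1 3' ends thus lay across the end of the convergent gene, while the second site stayed in the space between the genes.

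PDI1, EUG1, MPD1 and ERO1, the thiol oxidoreductase genes among the 10, had compact 3' ends, with the middle 80% of reads within 11 to 26 nt in each replicate. Such spans were not particular to them: HAC1 had 8 and 4 nt, IRE1 16 nt in both replicates and JEM1 17 nt in both. PDI1 (YCL043C, chromosome III, 48653 to 50221, minus strand), of protein disulfide isomerase, had 8998 and 4956 window reads. Of these 6617 and 3430 were at 63 nt (coordinate 48590), and this share of 71.4% ± 3.06 (SD, n = 2) was the highest leading share among the 10 genes. Only 3.42% of the ORFs used had a higher one. Minor sites at 53, 72, 74 and 96 nt each took between 3.13% and 6.48% of the reads in each replicate.

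EUG1 (YDR518W, chromosome IV, 1478608 to 1480161, plus strand), of a relative of Pdi1, had the most reads and the shortest mean endpoint of the 10 genes. Its 15394 and 15010 window reads fell almost wholly (99.5% in each replicate) between 41 and 64 nt. A pair of positions 11 nt apart was used about equally. Position 50 nt held 5847 and 5444 reads and position 61 nt held 5627 and 5871 reads. The order of the pair turned between the replicates, with 38.0% (Wilson 95% interval 37.2 to 38.8) at 50 nt and 36.6% (35.8 to 37.3) at 61 nt in replicate 1. In replicate 2 they were 36.3% (35.5 to 37.0) and 39.1% (38.3 to 39.9). EUG1 was therefore the 1 gene of the 10 whose most used position differed between replicates. The other 9 kept theirs, against 83.8% of all ORFs used.

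MPD1 (YOR288C, chromosome XV, 852121 to 853077, minus strand), of a smaller member of the disulfide isomerase family, ended at 3 positions spaced by 6 nt. Position 78 nt held 284 and 281 reads, position 84 nt 367 and 306, and position 90 nt 224 and 167. Together they made up 88.6% and 82.8% of its 988 and 911 window reads. ERO1 (YML130C, chromosome XIII, 11483 to 13174, minus strand), of the oxidase that recharges Pdi1, had 867 and 713 window reads, the fewest of the 10 genes. Its main site at 94 nt held 408 and 354 of them (48.4% ± 1.83, SD, n = 2), followed by 89 nt with 182 and 164. The gene after ERO1, YML131W, runs toward it from the opposite strand and enters the window at 188 nt, and no ERO1 read reached it in either replicate.

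CNE1 (YAL058W, chromosome I, 37464 to 38972, plus strand), of the yeast calnexin, a lectin chaperone of the ER membrane, had the widest 3' end of the 10 genes. It had 1021 and 1183 window reads. Its most used position was 132 nt, with 207 and 263 reads, but a broad proximal group at 30 to 69 nt held 62.7% and 55.1% of the reads. The groups at 118 to 132 nt and 186 to 196 nt held 24.8% and 28.4%, and 8.42% and 5.49%. The middle 80% of its reads spanned 113 and 109 nt, against a genome median of 44 and 45 nt. Its mean endpoint, 84.0 nt ± 3.04 (SD, n = 2), moved by 4.30 nt between the replicates, more than that of any of the other 9 genes.

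How widely the ends were spread is given as an effective number of positions, computed as e raised to the Shannon entropy of the site shares. Its median over the 10 genes was 5.10 and 4.92 in the replicates, against 8.46 and 8.43 over all ORFs used. It lay below the genome median in both replicates for 7 of the 10 genes, against 44.9% of all ORFs used. These 7 ran from 3.44 ± 0.298 for PDI1 and 3.57 ± 0.247 for JEM1 to 5.86 ± 0.433 for IRE1 (SD, n = 2 each). The other 3 were SCJ1 with 12.7 ± 0.244, LHS1 with 15.3 ± 0.167 and CNE1 with 16.5 ± 0.332. The gap between SCJ1 and IRE1 was thus far larger than the spread between replicates. More than 50% of the reads fell on 1 position in both replicates in HAC1, IRE1, JEM1 and PDI1, or 4 of 10, against 16.4% of all ORFs used.

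**Figure D3:**
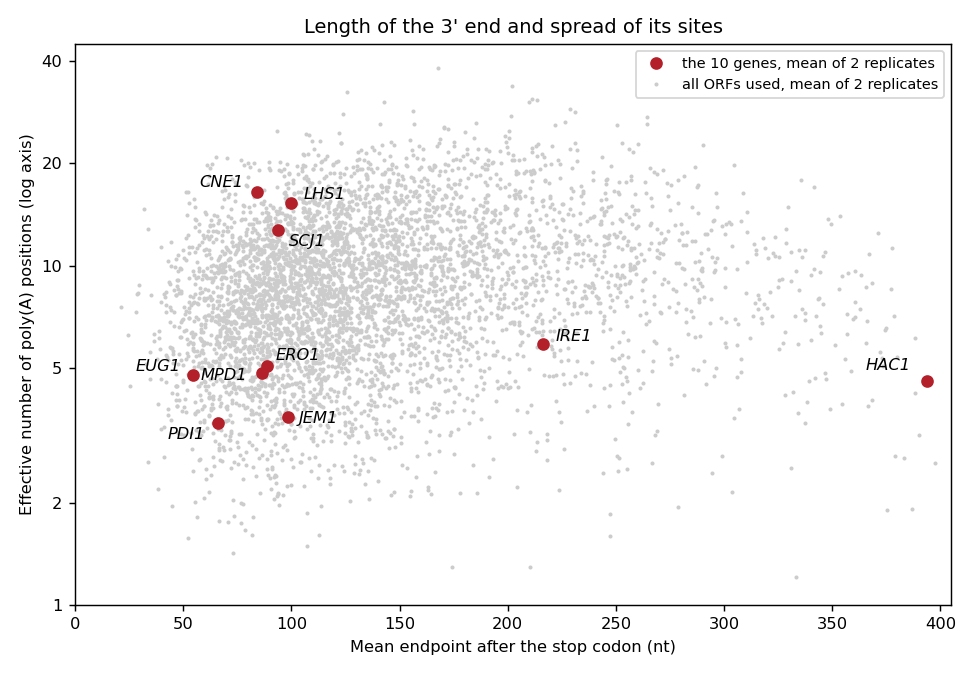
Effective number of poly(A) positions (vertical log axis) against mean endpoint in nt (horizontal axis) for the 10 genes (large red points) and all 4939 ORFs used (small grey points), each the mean of 2 replicates. LHS1, SCJ1 and CNE1 lie above 12 effective positions, and the other 7 genes lie between 3.44 and 5.86.

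The mean endpoint differed between the replicates by a median of 0.986 nt over the 10 genes, from 0.141 nt for HAC1 to 4.30 nt for CNE1, against a median of 2.03 nt over all ORFs used. The windows of SCJ1, PDI1, EUG1, MPD1 and CNE1 reach into the next gene on the same strand (GAS3, MGR1, FPR2, RRP36 and GPB2), whose reads cannot be told apart from theirs there. Few reads lay in those parts. SCJ1 had the most, with 34 and 42 reads (0.605% and 0.771%), EUG1 had 9 and 20, PDI1 had 5 and 0, and MPD1 and CNE1 had none in either replicate.

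The abundance of the 3' ends, in RPM (window reads per 1000000 reads summed over all ORF windows), covered a wide range. One read marks 1 transcript end, so these levels were not divided by gene length. EUG1 had 562 and 603 RPM, PDI1 had 329 and 199, and SCJ1 had 205 and 219. HAC1 followed with 109.6 and 152.9 and IRE1 with 59.5 and 73.8. These were the 5 genes above the genome median in both replicates, against 47.9% of all ORFs used. JEM1 had 51.0 and 50.6 RPM, LHS1 43.2 and 43.9, CNE1 37.3 and 47.5, MPD1 36.1 and 36.6, and ERO1 31.7 and 28.6.

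In that order of mean levels, each gene's replicate values lay apart from those of the next gene, except for PDI1 and SCJ1 and for LHS1 and CNE1, whose values overlapped. EUG1 exceeded its relative PDI1 in both replicates. PDI1 was the 1 gene of the 10 whose level differed by more than 1.5 times between the replicates (replicate 2 over replicate 1, 0.605), against 6.90% of all ORFs used. Its mean endpoint was nevertheless almost the same in both, at 66.1 and 66.3 nt.

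**Figure D4:**
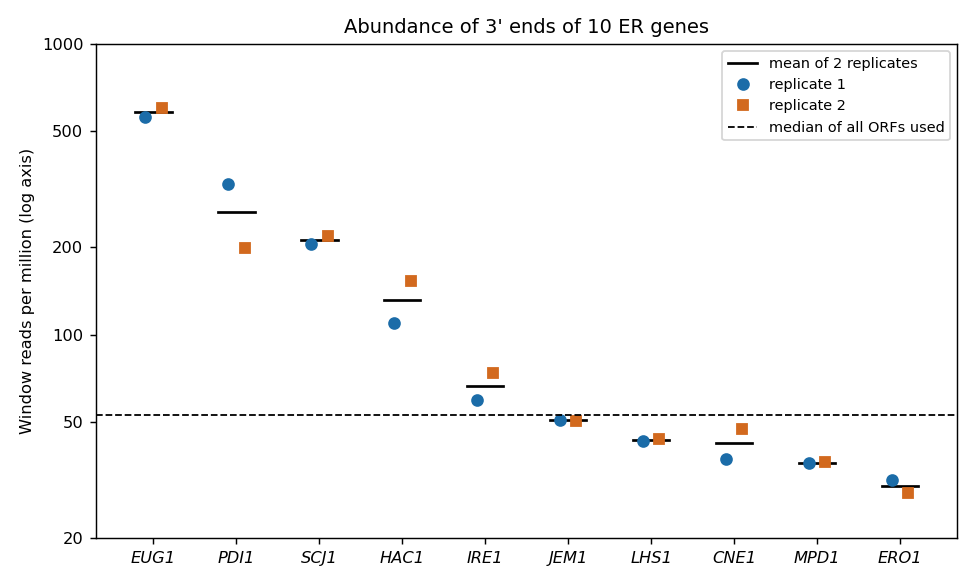
RPM of window reads (vertical log axis) of the 10 genes in replicate 1 (circles) and replicate 2 (squares), ordered by their mean (bar), with the median of all ORFs used as a dashed line. EUG1 is highest at 562 and 603, ERO1 is lowest at 31.7 and 28.6, and PDI1 has the widest gap between replicates.

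Reads inside the coding region were most frequent in LHS1. LHS1 had 329 reads in replicate 1 and 372 in replicate 2 inside its ORF, 124.3 and 140.6 per kb. They were 21.8% (Wilson 95% interval 19.8 to 23.9) and 25.4% (23.2 to 27.7) of its ORF and window reads. They lay at 13 and 14 positions, of which 7 and 6 had more than 5 reads. A share above 20% in both replicates was found in LHS1 alone among the 10, against 6.78% of all ORFs used. The tables give no place within the ORF for these reads. The gene upstream of LHS1, MUD2, runs the other way, and no feature on the same strand has a window that reaches into the LHS1 ORF. Whether these reads arose from true polyadenylation was not tested.

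The other 9 genes had between 1 and 59 reads inside the ORF per replicate. The share was below the genome median in both replicates for HAC1, SCJ1, EUG1 and CNE1, or 4 of the 10 genes, against 43.4% of all ORFs used. CNE1 had 1 in each (0.0978% and 0.0845%) and EUG1 31 and 46 (0.201% and 0.306%). HAC1 had 3 and 16 (0.0999% and 0.418%), so few of its reads ended inside the annotated region that holds the intron. SCJ1 had 37 and 36 (0.654% and 0.656%), of which 26 and 14 lay in the window of the upstream gene CEF1. Of the EUG1 reads, 25 and 8 lay in the window of the upstream gene GRH1. IRE1 had 17 and 36 (1.03% and 1.92%) and MPD1 30 and 16 (2.95% and 1.73%). 

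Intervals of the share did not overlap between replicates for JEM1 (8 and 34 reads, 0.570% and 2.63%), PDI1 (34 and 59 reads, 0.376% and 1.18%) and ERO1 (12 and 28 reads, 1.37% and 3.78%). That is 3 of the 10 genes, against 26.0% of all ORFs used. The share was higher in replicate 2 for 8 of the 10 genes, against 47.8% of all ORFs used, and for SCJ1 the gap was in the third digit. 

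**Figure D5:**
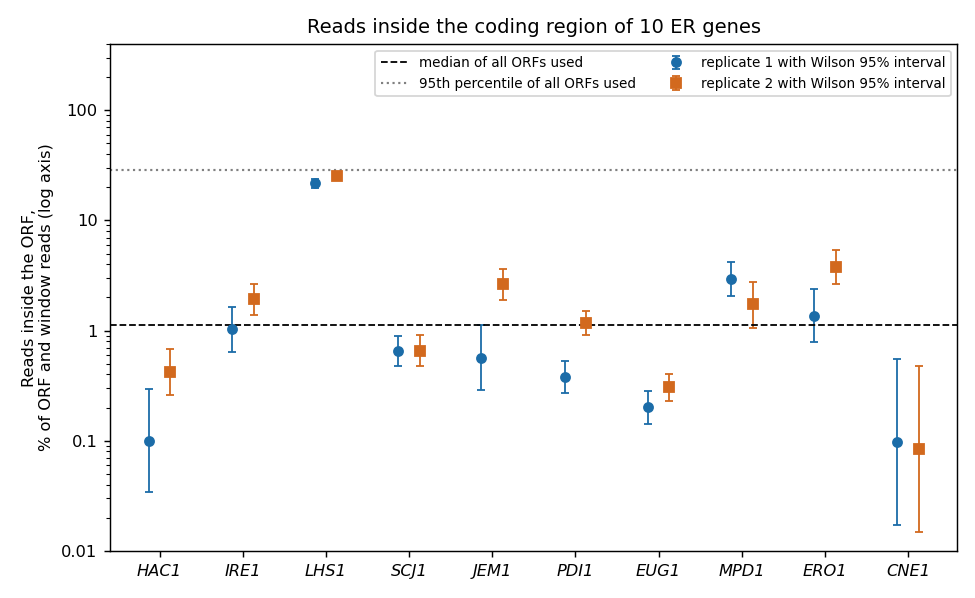
Reads inside the ORF as a percentage of ORF and window reads (vertical log axis) for the 10 genes in both replicates, with Wilson 95% intervals. LHS1, at 21.8% and 25.4%, stands above the other 9 genes, whose highest value is 3.78% (ERO1, replicate 2). The dashed and dotted lines are the median and the 95th percentile of all ORFs used.

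The rest of the pathway was described through 25 other genes in 3 lists, all with at least 100 window reads in both replicates. Their median endpoint was 115.8 and 124.1 nt. Of the 25, 12 lay below the genome median in both replicates and 11 above it, against 48.6% of all ORFs used each way. The 4 genes of HAC1 mRNA splicing and signalling had a median of 152.7 and 156.5 nt. TRL1, of the tRNA ligase that joins the HAC1 exons, ended at 206.2 nt ± 4.33, and TPT1, of the phosphotransferase that completes tRNA splicing, at 103.0 nt ± 1.09. DCR2, of a phosphatase that acts on Ire1, ended at 315.0 nt ± 1.19 and PTC2, of another such phosphatase, at 72.9 nt ± 1.16 (SD, n = 2 each). Of these 4 genes, 2 lay above the genome median in both replicates and 2 below it. That is near the 48.6% of all ORFs used found on each side.

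Of the 11 other chaperones and foldases, 5 lay below the genome median in both replicates and 5 above it. Over all ORFs used, 48.6% lay on each side in both replicates. KAR2, of the ER Hsp70 that Lhs1, Scj1 and Jem1 serve, ended at 119.2 nt ± 4.80 (SD, n = 2) and had 19.4 and 20.5 effective positions, on 14862 and 12331 window reads. The position it used most was 29 nt in the first replicate but 105 nt in the second. MPD2 and EPS1, further members of the disulfide isomerase family, ended at 159.7 nt ± 0.791 and 150.1 nt ± 12.3, beyond PDI1, EUG1 and MPD1 in both replicates. ERV2, of a second thiol oxidase, ended at 92.6 nt ± 4.63, close to ERO1 at 88.6 nt ± 0.661. By the span of the middle 80% of reads, these 3 genes were wider than the genome medians of 44 and 45 nt. That span was 54 nt in both replicates for MPD2, 161 and 109 nt for EPS1 and 51 nt in both for ERV2. ERV2 still had 57.3% and 49.4% of its reads at 79 nt. Its effective number of positions was 5.39 and 5.64, below the genome medians of 8.46 and 8.43. FPR2, the ER prolyl isomerase gene that follows EUG1 on the same strand, ended at 245.3 nt ± 1.61. ROT1 was the longest of the list at 316.3 nt ± 1.91, and CPR5, of an ER cyclophilin, the shortest at 74.0 nt ± 0.248 (SD, n = 2 each).

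The 10 genes of ER-associated degradation, which sends misfolded proteins to the proteasome, had a median endpoint of 111.6 and 120.2 nt. Of these, 5 lay below the genome median in both replicates and 4 above it, against 48.6% of all ORFs used each way. HRD3, of the partner of the ubiquitin ligase Hrd1, had the shortest at 79.7 nt ± 4.20. USA1, of a scaffold of that ligase, had the longest at 293.4 nt ± 0.258 (SD, n = 2 each). DER1, of a membrane protein of the same complex, ended at 122.8 nt ± 1.78 and had 14.0% and 15.5% of its reads inside the ORF. Whether those DER1 reads lay in the window of an upstream gene was not tested. The windows of HRD3, USA1, UBX2 and DFM1 overlap a same-strand neighbour. In USA1 the middle 80% of reads lay from 275 to 326 nt in both replicates. How many of the window reads belong to the neighbour was not tested for these genes, so their endpoints may not be theirs alone.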

How the data were processed

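3' READS libraries of 2 biological replicates of 1 strain were analysed. The signal values deposited by the authors are, per the file headers, reads summed inside each feature, over the window 1 to 400 nt after it and at its most used position. Their values were whole reads multiplied by 1 factor (0.858 in replicate 1, 0.940 in replicate 2). Positions relative to the highest, set to 100, and shares of a gene's reads were deposited as percent values. The submitters' processing notes name Bowtie. No version, genome build or rule for multiply matching reads was found in the labels or headers.

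Division by that factor restored the reads. Of the tested positions 99.998% and 99.995%, and of window totals 99.7% and 99.9%, lay within 0.1 of a whole number. Positions were tested only in features with at most 2000 reads at their most used position. EUG1 and PDI1 in both replicates and HAC1 in replicate 2 were thus outside the test of positions. Rounded to whole reads, the pooled table equalled the replicates' sum at all 94490 positions of genes with fewer than 1000 pooled reads at their most used position. Its deposited window totals over all features came to 52411244 reads, against 52411173 for the sum of both replicates. ORF coordinates equalled RefSeq R64 for 5787 of 5798 ORFs and all 10 genes. With 1 group, no count model could be fitted. Per gene and replicate, the mean endpoint, the most used position, its share, the effective number of positions and the share inside the ORF (Wilson 95% intervals) were computed with Python 3.11.15, numpy 2.4.6, pandas 2.3.3 and scipy 1.17.1. Shared area is the sum over positions of the smaller of both replicates' shares. Site groups join positions with at least 1% of reads that lie at most 15 nt apart. Named were all 10 genes, members of the lists, neighbours, and the 3 named ORFs nearest to HAC1. The genes and lists were chosen with earlier results of these data known. Sequence around the sites was not analysed here.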

Additional observations from a re-analysis of the deposited data

How the results depend on the processing

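The main values were a median endpoint of 91.2 nt, 2 genes beyond the genome median, a median leading share of 43.5% and a median effective number of 4.95. Positions 1 to 300 cut off HAC1, whose endpoint became 81.5 nt on 8 and 16 reads. The median endpoint was then 87.6 nt and 1 gene, IRE1, lay beyond the genome median. Positions 21 to 400 gave a median endpoint of 91.3 nt. Leaving out genes with another feature on the same strand inside the window, 5 genes were left, with a median endpoint of 99.9 nt and a median leading share of 52.5%. Counting reads within 5 nt of the most used position gave a median share of 54.7%. Leaving out 1 replicate at a time gave median effective numbers of 4.92 to 5.10. The pooled table, which sums the same 2 replicates, moved none of these 4 values by more than the spread between replicates. No filter on reads and a minimum of 500 reads could not move the medians of the 10 genes, which each had 713 or more window reads per replicate. These 2 settings changed only the genome median endpoint, to 124.9 and 120.5 nt, and 2 genes still lay beyond it. Of single-gene values in 1 to 300 nt, 5 of 30 moved by more than that spread. HAC1 aside, the largest endpoint move there was 2.06 nt (SCJ1). No paired analysis was possible because there is 1 group. The planned motif search was not run. Depth limits ORF-internal shares: CNE1 had 1 such read per replicate.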

Other observations

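UBX2, of a membrane protein of ER-associated degradation, had 21753 and 24463 reads inside its ORF, 86.6% and 90.3% of its ORF and window reads. Of these, 21746 and 24455 lay in the window of the upstream tRNA methyltransferase gene TRM9, which ends 84 nt before UBX2 on the same strand. The most used TRM9 position was 96 nt after its stop codon in both replicates, inside the UBX2 coding region. DFM1, of another membrane protein of that pathway, had 19.0% and 17.2% of its reads inside the ORF, and EPS1 had 71 and 66 such reads. For DFM1 and EPS1, whether such reads lay in the window of an upstream gene was not tested. ROT2, of glucosidase II, had the highest leading share of the 25 other pathway genes, with 84.2% ± 0.227 (SD, n = 2) at 131 nt.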
